A study of Bos taurus with 18 samples.

Results

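The genes described here encode the nuclear part of the mitochondrial respiratory chain and of the ATP synthase that it drives, read in granulosa and theca of the bovine preovulatory follicle. They were chosen by name, as the genes whose symbol starts with NDUF, UQCR, ATP5 or COX4 to COX8, together with CYC1 and SDHA to SDHD. This gave 85 of 9155 genes, of which 42 belong by name to complex I, 4 to complex II, 9 to complex III, 13 to complex IV and 17 to complex V. The rule did not use any measured value except to choose among probe sets of the same gene, where the probe set with the highest mean over the 18 arrays was read. Of the 85 genes 63 had 1 probe set and 22 had more. Some genes of the same complexes, such as COX6B1, COX7B and COX4I2, are not analysed here.

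Complex I takes electrons from NADH and complex II takes them from succinate, and both pass them to ubiquinone in the inner mitochondrial membrane. Complex III moves them on to cytochrome c, and complex IV hands them to oxygen. Complexes I, III and IV pump protons as they do so, and complex V, the ATP synthase, lets the protons flow back and makes ATP. A few subunits of each complex are encoded in the mitochondrial genome and are not among these genes. In the follicle, mitochondria also hold the enzyme that starts steroid synthesis from cholesterol, and the granulosa of the large follicle lies behind a basement membrane that blood vessels do not cross before ovulation.

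The tissue came from 1 dominant follicle of each of 6 cows. Follicles of cows D, F and G were taken before the surge of luteinising hormone (LH), and those of cows A, B and C were taken 22 h after GnRH, the hypothalamic hormone that was used to bring on the surge. The sample labels count the same 22 h from the surge and not from GnRH. From every follicle, membrane granulosa (the granulosa cells attached to the wall), antral granulosa (those aspirated with the fluid) and theca went on separate expression arrays, so that each of the 6 groups held 3 arrays from 3 cows. Before and after LH are therefore different animals, while the 3 cell populations at a time come from the same follicles; breed and age are not given in the sources used here. The question of the series is whether the surge acts differently on granulosa and theca.

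All values are log2 signals of a probe set, and a difference of 1 is a doubling. Signals of different genes are not compared, since each probe set has its own brightness. Differences are given with their standard error from a limma fit over all 18 arrays, and a gene is said to rise, fall or be called when its Benjamini-Hochberg adjusted p over 24016 probe sets was under 0.05. Of the 85 genes 84 had a mean above 4.62, the limit under which the 8005 dimmest probe sets lie, and the brightest value of any of them (13.7) was below the brightest value of every array (at least 14.6). COX6A2 was below the limit on every array and is not read further. Arrays of a group correlated at 0.97 to 0.99.

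Markers of a population were also seen in another. CYP19A1, the aromatase of granulosa, averaged 13.7 and 12.7 in membrane and antral granulosa before LH but also 10.3 on the theca arrays. CYP17A1, the androgen enzyme of theca, averaged 11.8 in theca before LH and 8.05 in membrane granulosa. The theca markers were mixed: of 7 measured, 4 were higher and 2 lower in theca than in membrane granulosa before LH. The 2 lower were LHCGR, with means of 8.6 in theca and 9.6 in membrane granulosa, and HSD3B1, with 11.8 and 13.2. Theca arrays carried the markers of smooth muscle and pericytes, with a sum over the 7 measured genes of 62.4 to 67.5 before LH against 40.1 to 47.6 in membrane granulosa and 33.7 to 34.7 in antral granulosa. The sum over 9 endothelial markers was 60.2 to 65.2 in theca before LH against 39.4 to 44.2 in membrane granulosa, with KDR below 4.62 throughout. In an RNA sample of many cells, fewer cells of a type and less RNA per cell cannot be told apart.

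After LH, the respiratory chain genes were lower in antral granulosa, in which 29 of 85 fell and NDUFB11 alone rose. The falls were 34.1% of these genes, beside 16.1% of all genes lower and 12.6% of all genes higher in the same comparison. The median change was -0.38, against -0.03 over all genes, and 76 of the 85 values were below 0. For 46 genes (54.1%) every array after LH lay below every array before it, which was so for 24.3% of all genes. NDUFS4, NDUFAF3, UQCR11, NDUFA3 and ATP5MC1 fell furthest, each by more than 1 on the log2 scale.

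In membrane granulosa 12 genes fell and NDUFB11 and NDUFA10 rose. The falls were 14.1% of the genes, beside 12.9% of all genes lower and 13.1% higher, so the share that fell was near that of all genes. The median change was -0.09 against -0.03 over all genes, and 50 of 85 values were below 0. For 14 genes (16.5%) the arrays after LH all lay below those before, beside 20.0% of all genes. The 12 that fell were 8 of complex I and 4 of complex V, and no gene of complexes II, III or IV was called.

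In theca 5 genes fell, ATP5MC1, NDUFA6, ATP5ME, NDUFB4 and NDUFS8, and NDUFB11 rose. These falls were 5.88% of the genes, beside 2.85% of all genes lower and 2.34% higher. The median change was -0.19 against -0.01 over all genes, and 78 of the 85 values were below 0, most of them small. A dimmer probe set of ATP5MG, a small membrane subunit of the ATP synthase, also fell in theca (-0.74, adjusted p = 0.00475), where the brighter read -0.27 (adjusted p = 0.357). Groups did not overlap, with the lower values after LH, for 22 genes (25.9%), beside 12.3% of all genes. None of the 5 theca falls was still called without each single cow in turn, and without cow A or without cow D no gene of the chain was called in theca at all. The calls over all genes were fewer there as well. They were 99 higher and 124 lower without cow A and 99 and 138 without cow D, beside 214 and 261 with every cow kept.

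**Figure D1:**
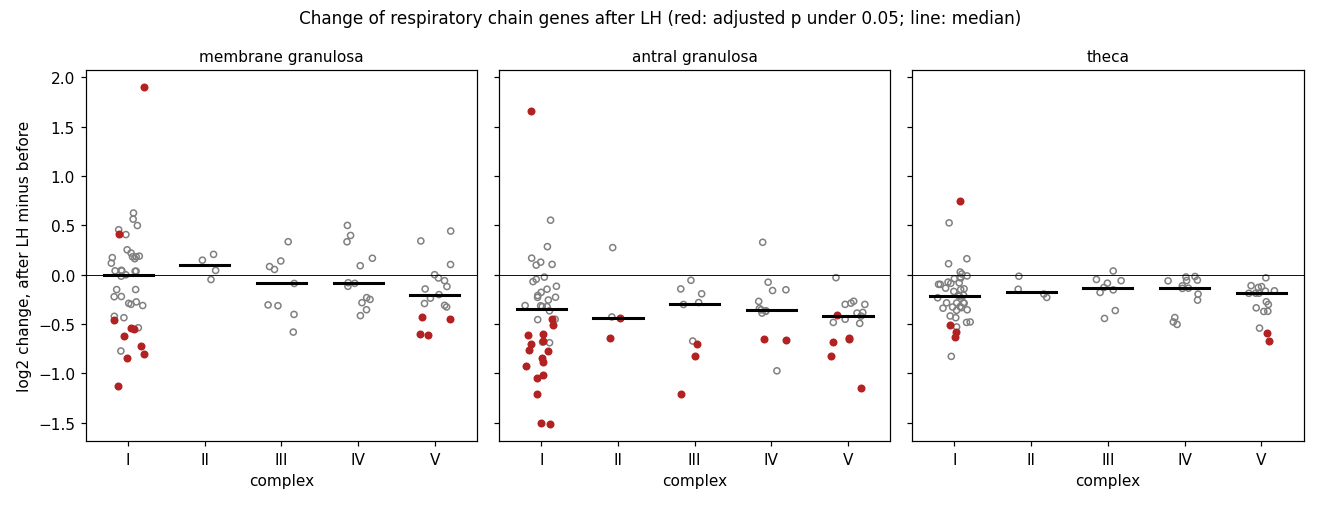
Change of each respiratory chain gene after LH (log2, after minus before, n = 3 cows per group) in membrane granulosa, antral granulosa and theca, by complex. Filled red points passed an adjusted p of 0.05 and lines are medians; in antral granulosa the median of every complex lies below 0, and the lone high point in each panel is NDUFB11.

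NDUFB11, an accessory subunit in the membrane arm of complex I, was the only gene of the chain that rose in all 3 populations. In membrane granulosa it read 10.3, 10.4 and 9.98 in cows D, F and G before LH and 12.4, 12.4 and 11.6 in cows A, B and C after it. In antral granulosa it read 10.7, 10.6 and 10.7 before and 12.3, 12.2 and 12.4 after. In theca it read 10.9, 10.97 and 10.8 before and 11.8, 11.5 and 11.5 after. The arrays after LH were thus above those before in every population, with no overlap. The rise was 1.90 ± 0.17 in membrane granulosa (adjusted p = 1.23e-06), 1.66 ± 0.17 in antral granulosa (adjusted p = 3.17e-06) and 0.74 ± 0.17 in theca (adjusted p = 0.0227). The 2 granulosa rises were called without any single cow, and the theca rise was lost without cow A, D, F or G (adjusted p up to 0.144). The rise in theca was smaller than that in membrane granulosa by 1.16 ± 0.23 (adjusted p = 0.00687, up to 0.0483 without a cow). NDUFB11 stood higher in theca than in membrane granulosa before LH, by 0.64 ± 0.16 (adjusted p = 0.00764, 0.0653 without cow G), and lower after LH, with a difference of -0.52 ± 0.16 (adjusted p = 0.0318, lost without cow A, B or D). It has a single probe set on the array.

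NDUFS4, an accessory subunit of complex I needed for its assembly and activity, had the largest fall in both granulosa populations. It read 12.8, 13.1 and 12.7 in membrane granulosa of cows D, F and G before LH and 11.6, 11.8 and 11.9 in cows A, B and C after. In antral granulosa it read 13.4, 13.4 and 12.9 before and 11.5, 11.8 and 11.9 after, and in theca 12.4, 12.1 and 11.8 before and 11.3, 11.6 and 11.9 after. The groups were apart in both granulosa populations and overlapped in theca, where cow C after LH lay above cow G before it. The changes were -1.13 ± 0.20 in membrane granulosa (adjusted p = 0.000595), -1.51 ± 0.20 in antral granulosa (adjusted p = 3.31e-05) and -0.48 ± 0.20 in theca (adjusted p = 0.235). The change in theca differed from that in membrane granulosa by 0.64 ± 0.18 (adjusted p = 0.0427), a call that was lost without cow A, B, C, F or G. Before LH NDUFS4 was lower in theca than in membrane granulosa, with a difference of -0.78 ± 0.13 (adjusted p = 0.000467). After LH that difference was -0.13 ± 0.13 and was not called.

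Of the 6 measured subunits of the catalytic core of complex I, some of which carry the flavin or iron-sulfur clusters, NDUFS3 and NDUFS8 fell in antral granulosa. NDUFS1 fell in membrane granulosa. NDUFS3 read 10.6, 10.2 and 10.3 in antral granulosa before LH and 9.33, 9.39 and 9.80 after, a change of -0.88 ± 0.22 (adjusted p = 0.00782, 0.0629 without cow D). A dimmer probe set of NDUFS3 fell in antral and in membrane granulosa, with changes of -0.85 and -0.99 (adjusted p = 0.0445 and 0.0220), where the brighter read -0.31 ± 0.22 in membrane granulosa. NDUFS8 changed by -0.45 ± 0.13 there (adjusted p = 0.0200, lost without cow D or G) and by -0.51 ± 0.13 in theca (adjusted p = 0.0419), and was not called in membrane granulosa (-0.15 ± 0.13). NDUFS1, which takes electrons on through its iron-sulfur clusters, read 10.3, 10.2 and 10.1 in membrane granulosa before LH and 9.61, 9.56 and 9.81 after. Its groups did not overlap, and the change was -0.55 ± 0.13 (adjusted p = 0.00682). Another probe set of NDUFS1, also above the limit, read -0.14 there (adjusted p = 0.537). NDUFV1, which binds NADH, read 0.46 ± 0.21 in membrane and 0.10 ± 0.21 in antral granulosa, and NDUFV2 and NDUFS7 were not called in any population after LH. NDUFS7 spread widely, with 8.91, 8.63 and 9.89 in membrane granulosa of cows A, B and C.

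Among the 30 accessory subunits of complex I, NDUFA3, NDUFA6, NDUFA12, NDUFA13, NDUFB4 and NDUFS4 fell in both granulosa populations. NDUFA3 read 10.7 in all 3 cows in membrane granulosa before LH and 9.67, 9.74 and 10.1 after it. In antral granulosa it read 11.5, 11.002 and 11.1 before and 9.96, 9.72 and 10.3 after. The 2 sets of arrays were apart in both, and the falls were -0.85 ± 0.19 (adjusted p = 0.00397) and -1.21 ± 0.19 (adjusted p = 0.000194), each called without any single cow. NDUFA6 and NDUFB4 fell in theca as well. NDUFB4 read 10.96, 11.06 and 10.96 in antral granulosa before LH and 9.88, 9.77 and 10.2 after, a change of -1.05 ± 0.15 (adjusted p = 0.000101), beside -0.72 ± 0.15 in membrane granulosa (adjusted p = 0.00268) and -0.58 ± 0.15 in theca (adjusted p = 0.0444). NDUFA6 changed by -0.84 ± 0.15, -0.62 ± 0.15 and -0.63 ± 0.15 in antral granulosa, membrane granulosa and theca (adjusted p = 0.000748, 0.00832 and 0.0295).

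A further 7 accessory subunits, NDUFA7, NDUFA8, NDUFA11, NDUFAB1, NDUFC1, NDUFC2 and NDUFS6, fell in antral granulosa and were not called in the other populations. Their changes in antral granulosa ran from -0.51 for NDUFS6 to -1.02 for NDUFA11. NDUFA8 read 11.2, 11.2 and 11.05 before LH there and 10.3, 10.5 and 10.5 after, while its change in membrane granulosa was -0.00 ± 0.12. NDUFAB1 is also the acyl carrier protein of mitochondrial fatty acid synthesis. Its change was -0.76 ± 0.25 in antral granulosa (adjusted p = 0.0380, lost without cow A, B, D or F) and 0.18 ± 0.25 in membrane granulosa. A dimmer probe set of NDUFAB1 differed in membrane granulosa, where it fell (-1.05, adjusted p = 0.0209). In antral granulosa it read much like the brighter one but was not called (-0.74, adjusted p = 0.0991). A dimmer probe set of NDUFB2 fell in antral granulosa (-0.63, adjusted p = 0.0118), where the brighter read -0.37 (adjusted p = 0.0779). Another probe set of NDUFA11, near the limit at a mean of 4.88, read 0.09 in antral granulosa (adjusted p = 0.774), where the brighter probe set fell, and fell in membrane granulosa with a change of -0.66 (adjusted p = 0.00766). The fall of the brighter one was lost without cow A or D. NDUFA10, a subunit of the matrix side, rose in membrane granulosa by 0.42 ± 0.12 (adjusted p = 0.0252, lost without cow A, B, D or G).

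Of the 4 genes of the rule that are assembly factors of complex I and no subunits, NDUFAF3 fell and NDUFAF5, NDUFAF6 and NDUFAF8 were not called after LH. NDUFAF3 works at an early step of complex I assembly. It read 10.1, 10.4 and 10.2 in membrane granulosa before LH and 9.33, 9.25 and 9.73 after, and 10.3, 10.6 and 10.4 in antral granulosa before and 9.09, 8.77 and 8.97 after. All arrays after LH were below all arrays before in both, and also in theca, where the values went from 9.80, 10.2 and 10.04 to 9.43, 9.67 and 9.51. The changes were -1.50 ± 0.15 in antral granulosa (adjusted p = 2.88e-06), -0.80 ± 0.15 in membrane granulosa (adjusted p = 0.00130) and -0.48 ± 0.15 in theca (adjusted p = 0.108). A second probe set above the limit read -1.67 (adjusted p = 8.47e-05), -0.86 (adjusted p = 0.0172) and -0.71 (adjusted p = 0.130). A second probe set of NDUFAF5 fell in antral granulosa (-1.29, adjusted p = 0.0417), where the brighter read -0.68 (adjusted p = 0.108). NDUFAF6 read the other way, by 0.56 ± 0.22, 0.55 ± 0.22 and 0.52 ± 0.22 in membrane granulosa, antral granulosa and theca, with no call. NDUFA4, now counted as a subunit of complex IV, and its paralog NDUFA4L2, which is known as a gene induced by hypoxia, were not called. NDUFA4 read -0.15, -0.03 and -0.28 in membrane granulosa, antral granulosa and theca, and NDUFA4L2 read 0.04, -0.15 and -0.04, at signals of 4.89 to 5.60. A second probe set of NDUFA4L2, with a mean of 4.59 just under the limit, fell in antral granulosa (-1.61, adjusted p = 0.000586) and was higher in antral than in membrane granulosa before LH (1.54, adjusted p = 0.0155).

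**Figure D2:**
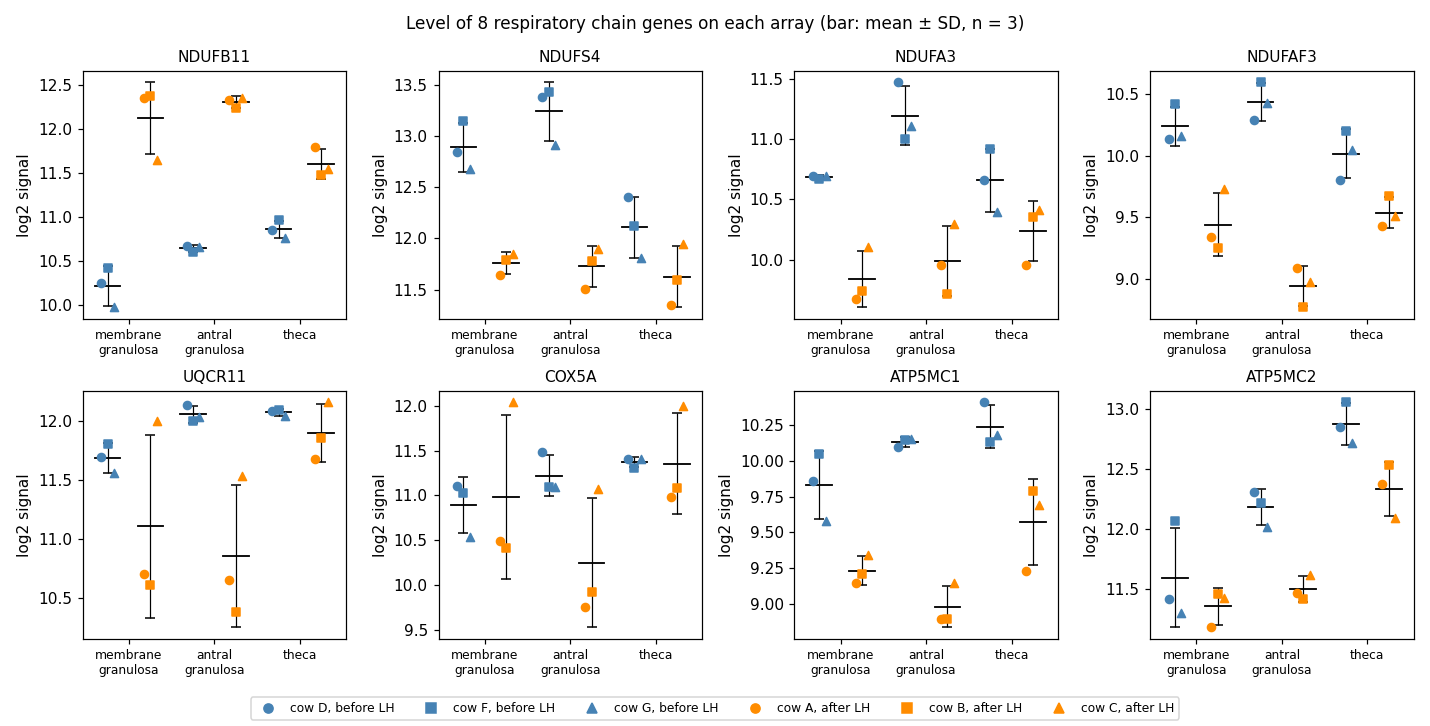
Log2 signal of 8 respiratory chain genes on each of the 18 arrays, blue before and orange after LH, with the marker giving the cow and the bar the mean ± SD of 3 cows. NDUFB11 is higher after LH in all 3 populations; NDUFS4, NDUFA3 and NDUFAF3 are lower in both granulosa populations; cow C stands above cows A and B for UQCR11 and COX5A.

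Complex II, which is also the succinate dehydrogenase of the citric acid cycle, held 2 falls in antral granulosa and no call elsewhere after LH. The iron-sulfur subunit SDHB read 11.3, 11.2 and 10.9 in antral granulosa before LH and 10.3, 10.4 and 10.8 after, a change of -0.64 ± 0.19 (adjusted p = 0.0209, lost without cow A, B, D or F). The membrane anchor SDHC changed by -0.44 ± 0.15 (adjusted p = 0.0481), a call lost without any 1 of the 6 cows. The other anchor, SDHD, read -0.43 ± 0.18 (adjusted p = 0.113), with overlapping groups. The flavoprotein SDHA, which oxidises succinate, read 0.27 ± 0.13 in the same arrays (adjusted p = 0.172), and was thus the only gene of complex II with a value above 0 in antral granulosa.

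In complex III, 3 small subunits fell in antral granulosa and the catalytic ones were not called. UQCR10 read 12.5, 12.4 and 12.3 before LH and 11.7, 11.5 and 11.9 after, and its change was -0.70 ± 0.14 (adjusted p = 0.00179). UQCRQ changed by -0.83 ± 0.19 (adjusted p = 0.00491). UQCR11 read 12.1, 11.998 and 12.04 before LH and 10.6, 10.4 and 11.5 after, with the groups apart and cow C far above cows A and B. Its change was -1.21 ± 0.31 (adjusted p = 0.0107), lost without cow A, B or D. Cytochrome c1 (CYC1), the Rieske iron-sulfur protein (UQCRFS1) and the core proteins UQCRC1 and UQCRC2 read -0.28, -0.14, -0.06 and -0.19 in antral granulosa, and -0.09, 0.33, 0.14 and 0.08 in membrane granulosa, with no call in any population. A second probe set of UQCRC2 did fall, with changes of -1.06 in antral and -1.34 in membrane granulosa (adjusted p = 0.00629 and 0.00125), so the probe sets of this gene disagree. UQCRH, a small acidic subunit at the cytochrome c side, read -0.30 ± 0.17 in antral granulosa.

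In complex IV, COX8A and COX7A1 fell in antral granulosa and no gene was called in membrane granulosa or theca after LH. COX8A read 11.9, 11.8 and 11.7 before LH there and 11.1, 10.97 and 11.3 after, a change of -0.66 ± 0.15 (adjusted p = 0.00389). COX7A1, the isoform known from heart and skeletal muscle, read 9.72, 9.78 and 9.08 before and 8.87, 8.99 and 8.75 after. Its groups were apart with cow G near the later values, and the change of -0.66 ± 0.20 (adjusted p = 0.0292) was lost without cow A, B, C, D or F. Its widely expressed partner COX7A2 read -0.37 ± 0.22 (adjusted p = 0.290). COX4I1, the regulatory subunit, read 0.40, -0.08 and -0.06 in membrane granulosa, antral granulosa and theca, and COX6A1 -0.28, -0.36 and -0.14, with no call.

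COX5A, a subunit on the matrix side of the complex, differed widely between cows. In membrane granulosa it read 11.1, 11.03 and 10.5 in cows D, F and G before LH, and 10.5, 10.4 and 12.04 in cows A, B and C after it. In antral granulosa it read 11.5, 11.09 and 11.09 before and 9.75, 9.92 and 11.07 after. Cow C was thus above every array before LH in membrane granulosa, and in antral granulosa just below them. The changes were 0.09 ± 0.41 and -0.97 ± 0.41 (adjusted p = 0.913 and 0.107).

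In complex V, 6 genes fell in antral granulosa, 4 in membrane granulosa and 2 in theca. ATP5MC1 and ATP5MC2 are nuclear genes that encode the same mature subunit of the rotating ring in the membrane, as does ATP5MC3. ATP5MC1 read 10.1, 10.1 and 10.2 in antral granulosa before LH and 8.90, 8.90 and 9.15 after. In membrane granulosa it read 9.86, 10.1 and 9.58 before and 9.15, 9.21 and 9.34 after, and in theca 10.4, 10.1 and 10.2 before and 9.23, 9.79 and 9.69 after. Groups did not overlap in any population, and the changes were -1.15 ± 0.15 (adjusted p = 4.51e-05), -0.60 ± 0.15 (adjusted p = 0.0109) and -0.67 ± 0.15 (adjusted p = 0.0224). The call held without each cow in antral granulosa, was lost without cow F in membrane granulosa, and was lost without cow A, D or G in theca. ATP5MC2 fell in antral granulosa, with a change of -0.68 ± 0.18 (adjusted p = 0.0129, lost without cow A, B or D), while ATP5MC3 read -0.29, 0.34 and -0.03 in antral granulosa, membrane granulosa and theca, with cow C the highest of the 3 cows after LH each time.

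Of the catalytic head of the ATP synthase, only the alpha subunit was called after LH. ATP5F1A, which encodes it, fell in membrane granulosa, with a change of -0.45 ± 0.15 (adjusted p = 0.0452, lost without cow A, B, D or F), and overlapped between the groups. The catalytic beta subunit ATP5F1B read -0.20, -0.27 and -0.17 in membrane granulosa, antral granulosa and theca, and the gamma subunit ATP5F1C -0.03, -0.42 and -0.16, with no call. ATP5PB of the peripheral stalk fell in antral granulosa, with a change of -0.83 ± 0.21 (adjusted p = 0.00859, 0.0534 without cow A) and in membrane granulosa, with a change of -0.61 ± 0.21 (adjusted p = 0.0495, lost without cow A, B, D or F). ATP5MJ, a small membrane subunit, fell in both as well, with changes of -0.64 ± 0.12 and -0.43 ± 0.12 (adjusted p = 0.00086 and 0.0165). ATP5ME, which takes part in joining synthase dimers, fell in antral granulosa and theca, with changes of -0.41 ± 0.13 and -0.59 ± 0.13 (adjusted p = 0.0295 and 0.0150). ATP5IF1, the inhibitor that stops the synthase from running backwards, fell in antral granulosa, with a change of -0.65 ± 0.16 (adjusted p = 0.00907, lost without cow A, B or F).

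Across the 3 populations, 31 genes fell in at least 1, and ATP5MC1, NDUFA6 and NDUFB4 fell in all 3. Of the 12 falls in membrane granulosa 10 were also falls in antral granulosa, and all 5 falls in theca were. The change was below 0 in all 3 populations for 49 genes and above 0 in all 3 for NDUFA10, NDUFAF6, NDUFB11, NDUFB7, NDUFV1 and NDUFV3. These comparisons share cows, since the 3 populations of a cow come from 1 follicle. The matching counts over all genes were not made, so these counts are not read as particular to the chain.

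Whether antral and membrane granulosa differed in their response was tested directly within cows. The change was lower in antral than in membrane granulosa for 77 of 85 genes, with a median difference of -0.34 against -0.03 over all genes, but no gene of the chain was called, and 0% of all genes were. At an unadjusted p under 0.05 there were 28 of the 85 genes and 2236 of 24016 probe sets, and the smallest adjusted p of a respiratory chain gene was 0.292. Between theca and membrane granulosa, the response differed for NDUFB11, COX6B2 (both lower in theca) and NDUFS4 (higher). These are 2.35% of the genes lower and 1.18% higher, under the 5.96% of all genes lower and 5.66% higher. The median difference was -0.13 against -0.01. A dimmer probe set of ATP5MG was also called lower (-0.66, adjusted p = 0.0262), where the brighter read -0.15 (adjusted p = 0.703). COX6B2, the isoform known from testis, read 4.71, 4.61 and 4.38 in membrane granulosa before LH, where 1 of 3 arrays was above the limit of 4.62, and 5.31, 5.06 and 4.82 after. In theca it read 5.51, 5.34 and 5.84 before and 4.96, 5.05 and 5.17 after. Its changes, 0.50 ± 0.20 and -0.50 ± 0.20, were not called singly, and their difference of -1.002 ± 0.28 (adjusted p = 0.0463) was lost without cow A, B, D or G.

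**Figure D3:**
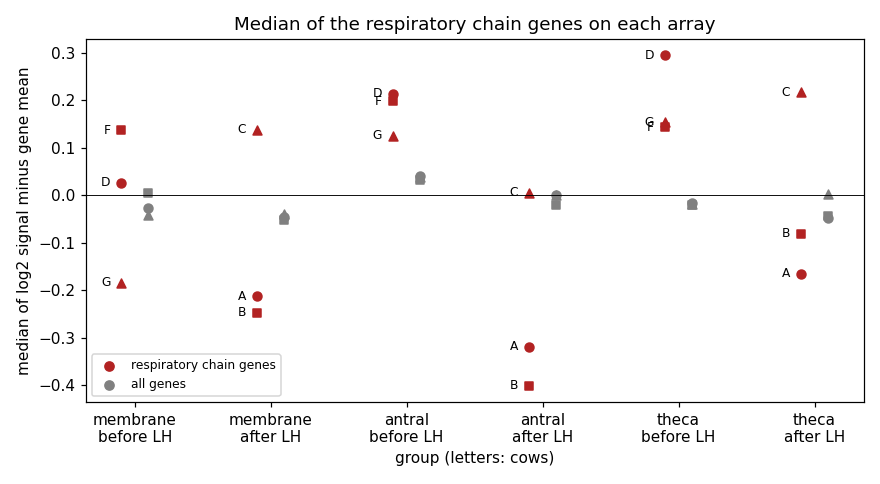
Median over the 85 respiratory chain genes (red) and over all 9155 genes (grey) of each array's log2 signal minus the gene's mean over 18 arrays; letters and marker shapes give the cow. The red values of cows A and B after LH lie below 0 in each population and those of cow C at or above 0, while the grey values all lie between -0.05 and 0.04.

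Cow C stood apart from cows A and B in all 3 populations. Its value was the highest of the 3 cows after LH for 67 of 85 genes in membrane granulosa (78.8%), 71 in antral granulosa (83.5%) and 67 in theca (78.8%), beside 38.7%, 40.2% and 39.4% of all genes. The median of cow C less the mean of cows A and B was 0.34, 0.36 and 0.32, against -0.01, 0.02 and -0.00 over all genes. The median over the chain of each array, less the gene means, was -0.32 and -0.40 in antral granulosa of cows A and B and 0.00 in that of cow C, beside 0.13 to 0.21 before LH. In membrane granulosa it was -0.21, -0.25 and 0.14 in cows A, B and C, and 0.03, 0.14 and -0.18 in cows D, F and G before LH, so that these groups overlapped. In theca it was -0.17, -0.08 and 0.22 after LH and 0.14 to 0.29 before. Without cow C, 46 genes fell in antral granulosa, 24 in membrane granulosa and 7 in theca. Of all genes 1632, 1300 and 270 fell without cow C, beside 1473, 1185 and 261 with every cow kept. Without cow A the falls in antral granulosa were 17, without cow B 18, without cow D 17 and without cow F 21. Over all genes the falls in antral granulosa were 1063, 1152, 1151 and 1222, in the same order. Of the 29 falls in antral granulosa 14 held without each cow in turn, and of the 12 in membrane granulosa 5 did (NDUFA3, NDUFAF3, NDUFB4, NDUFS1 and NDUFS4).

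**Figure D4:**
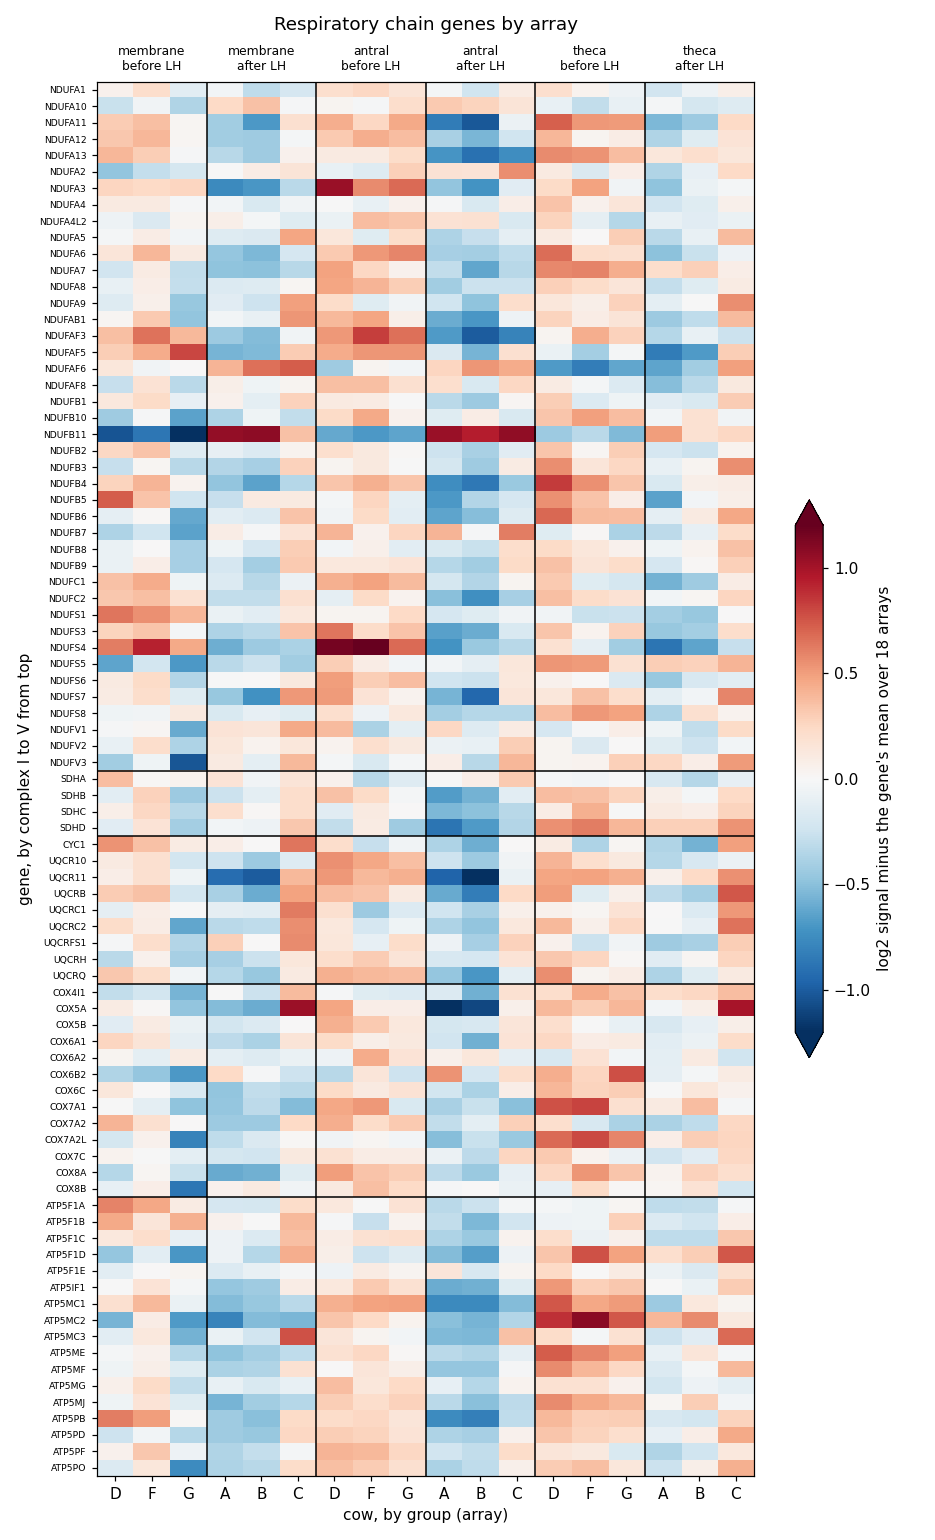
Log2 signal of each of the 85 respiratory chain genes on each array minus that gene's mean over the 18 arrays, with genes by complex from I at the top to V at the bottom and arrays by population, time and cow; the colour scale ends at -1.2 and 1.2. Antral granulosa of cows A and B is blue for most genes and cow C paler or red, and the NDUFB11 row runs opposite to its neighbours.

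Other cell markers moved with LH too. The sum of the 11 granulosa markers went from 128.7 to 130.5 in membrane granulosa before LH to 95.1 to 106.9 after, and from 128.0 to 130.4 to 96.6 to 103.9 in antral granulosa, with FOXL2 near or below 4.62 throughout. The sum of the 8 fibroblast markers went from 62.8 to 71.5 in membrane granulosa before LH to 79.6 to 88.6 after, and from 43.6 to 46.8 in antral granulosa to 61.2 to 73.1, where COL3A1 and POSTN were below 4.62 before LH. Their part in the changes of the respiratory chain genes was not tested. Red cell markers gave sums of 24.2 to 27.0 over 6 genes in every group, with ALAS2, SLC4A1, HBA and AHSP below 4.62 in all group means.

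Before LH, theca stood above membrane granulosa for 30 of the 85 genes and below it for 7. These are 35.3% and 8.24% of the genes, beside 21.1% of all genes higher and 19.3% lower in theca. The median difference was 0.18 against -0.02 over all genes. By complex, 12 of 42 genes of complex I, 2 of 4 of complex II, 1 of 9 of complex III, 6 of 13 of complex IV and 9 of 17 of complex V were higher in theca. Against antral in place of membrane granulosa, theca before LH was higher for 11 genes and lower for 9, with a median of 0.02. Over all 9155 genes, 1783 were higher and 2007 lower in that comparison, with a median of -0.08. Centring each array on its own median lowered the median difference of all genes to -0.13. It left 21 genes of the chain higher and 8 lower, beside 1646 and 2284 of all genes.

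ATP5MC2, of the membrane ring, showed the largest difference. It read 12.8, 13.1 and 12.7 in theca of cows D, F and G and 11.4, 12.1 and 11.3 in their membrane granulosa, so that theca was higher by 1.44, 0.99 and 1.42 within cows. The difference was 1.28 ± 0.16 (adjusted p = 6.07e-05), and after LH it was 0.98 ± 0.16 (adjusted p = 0.000846), both called without any single cow. COX7A2L, which helps to join complexes III and IV into supercomplexes, was higher in theca before LH by 0.89, 0.74 and 1.39 within cows, or 1.01 ± 0.14 (adjusted p = 0.000181). COX6B2 was higher by 1.00 ± 0.20 (adjusted p = 0.00198), at levels near the limit in membrane granulosa. ATP5F1D, the delta subunit of the central stalk, was higher by 0.95 ± 0.15 (adjusted p = 0.000350). A second probe set of ATP5F1D, with a mean of 5.20, read 0.22 with no call (adjusted p = 0.311). NDUFS5, an accessory subunit on the intermembrane side of complex I, was higher by 0.92 ± 0.13 (adjusted p = 0.000146). SDHD was higher by 0.65 ± 0.11 (adjusted p = 0.000663) and COX4I1 by 0.70 ± 0.14 (adjusted p = 0.00159). For these 7 genes theca was the higher in each of the 3 cows.

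Lower in theca before LH were NDUFS4, NDUFAF6, NDUFS1, NDUFAF5, CYC1, ATP5F1A and COX7A2. NDUFAF6, an assembly factor, was lower, with differences of -0.82, -0.78 and -0.63 in cows D, F and G, or -0.74 ± 0.19 (adjusted p = 0.00894). NDUFAF5, another, was lower, with a difference of -0.68 ± 0.15 (adjusted p = 0.00416). NDUFS1 was lower, with a difference of -0.72 ± 0.12 (adjusted p = 0.000494), but its other probe set above the limit read 0.06 (adjusted p = 0.782). CYC1 was lower, with a difference of -0.42 ± 0.14 (adjusted p = 0.0353, lost without cow A, B, D or F). NDUFA11 is a further gene whose probe sets disagree, with 0.35 for the brighter (adjusted p = 0.0413) and -0.59 for the dimmer (adjusted p = 0.0143). Other probe sets of NDUFS3, NDUFAB1 and UQCRC2 read -1.89, -1.52 and -0.98 (adjusted p = 0.000177, 8.95e-05 and 0.000290), where those of higher signal were not called, and another of ATP5MG read 0.98 (adjusted p = 5.01e-05) beside 0.14. Dimmer probe sets of COX6A1, COX6C and NDUFA5 were also lower in theca (-1.43, -1.03 and -0.62, adjusted p = 0.00403, 0.00075 and 0.0379), where the brighter read 0.04, 0.33 and 0.12 with no call. Held without each single cow were 14 of the 30 higher and 4 of the 7 lower calls.

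After LH, theca stood above membrane granulosa for 13 genes and below it for NDUFAF6 and NDUFB11. These are 15.3% and 2.35% of the genes, beside 15.7% of all genes higher and 15.7% lower, so the share higher was near that of all genes. Quantile normalization gave 22 higher and 2 lower, beside 1515 of 9155 genes higher and 1327 lower. Centring each array on its median gave 11 higher and 5 lower, beside 1334 and 1622 of all genes. Against antral in place of membrane granulosa, 26 were higher in theca and 5 lower, beside 2031 and 1833 of all genes. The genes higher in theca both before and after LH were 9, namely ATP5IF1, ATP5MC2, ATP5ME, ATP5MJ, ATP5PD, COX7A1, COX8A, NDUFA7 and NDUFS5, and NDUFAF6 was lower both times. COX7A1 was higher in theca by 0.77, 0.93 and 0.67 within cows before LH and by 0.58, 0.69 and 0.50 after, or 0.79 ± 0.10 and 0.59 ± 0.10 (adjusted p = 9.56e-05 and 0.00145), without loss of the call for any left-out cow. NDUFS5 was higher after LH by 0.66 ± 0.13 (adjusted p = 0.00263). UQCR11 was higher by 0.97, 1.24 and 0.16 in cows A, B and C, or 0.79 ± 0.17 (adjusted p = 0.00501, lost without cow A or B). In cow C it read 12.001 in membrane granulosa and 12.2 in theca. NDUFA7 and COX8A followed with 0.63 ± 0.13 and 0.62 ± 0.13 (adjusted p = 0.00454 and 0.00487), both lost without cow A or B. COX6C was higher by 0.43 ± 0.12 (adjusted p = 0.0214), while a dimmer probe set of it read -0.88 (adjusted p = 0.00373). Dimmer probe sets of COX6A1, NDUFS3 and NDUFAB1 were lower in theca (-1.47, -1.16 and -0.84, adjusted p = 0.00539, 0.00733 and 0.00779), where the brighter were not called. With other probe sets the counts were 12 higher and 6 lower.

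The smooth muscle, fibroblast and endothelial markers named above were higher in theca as well, by medians of 3.31, 2.83 and 3.04 before LH, and their part in the differences between theca and granulosa was not tested. For the muscle isoforms, the markers of striated muscle were read. TNNT2 was below 4.62 in every group (means of 3.12 to 3.47) and the myoglobin gene MB near it (4.19 to 4.87), while CKM read 8.69 to 11.3 and MYH7 8.34 to 10.9. The sums over the 6 measured genes were 38.8 to 40.2 in membrane granulosa and 39.8 to 40.7 in theca before LH, but single genes differed, with 3 of the 6 higher and 1 lower in theca. MYH7 averaged 8.74 in membrane granulosa and 10.6 in theca before LH, and CKM 11.3 and 9.75. COX8B, another muscle isoform, read 9.94 ± 0.50 (SD, n = 3) in membrane granulosa, 10.5 ± 0.12 in antral granulosa and 10.3 ± 0.17 in theca before LH, and was not called in any comparison.

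**Figure D5:**
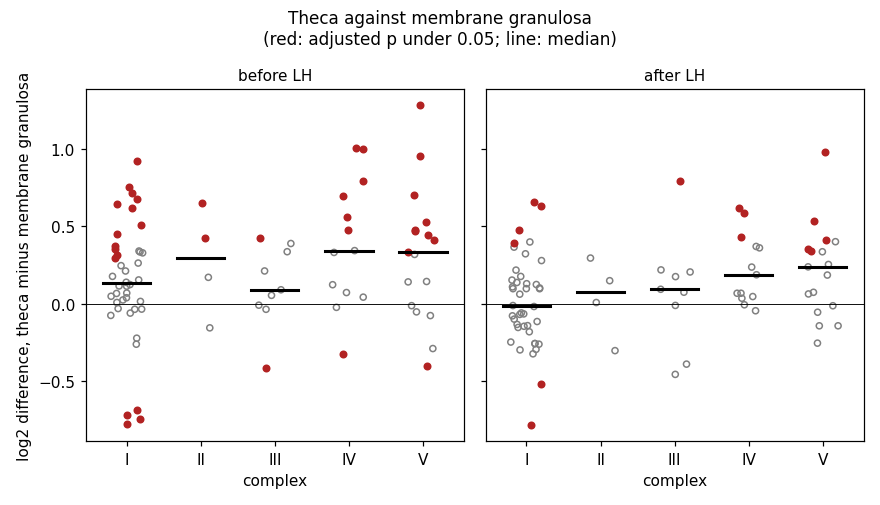
Difference of each respiratory chain gene between theca and membrane granulosa of the same follicles (log2, n = 3 cows), before LH on the left and after LH on the right, by complex; filled red points passed an adjusted p of 0.05 and lines are medians. Before LH 30 points are called above 0 and 7 below, after LH 13 and 2, and the highest point in both panels is ATP5MC2 of complex V.

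Between antral and membrane granulosa of the same follicles few genes were called. Before LH, NDUFS5, NDUFB10, NDUFA8 and COX7A1 were higher in antral granulosa, which is 4.71% of the genes, beside 1.05% of all genes higher and 1.53% lower. NDUFB10 was higher by 0.65, 0.46 and 0.69 in cows D, F and G, or 0.60 ± 0.11 (adjusted p = 0.0221), and NDUFS5 by 0.63 ± 0.13 (adjusted p = 0.0313). The median over the 85 genes was 0.21 against 0.04, and 46 genes (54.1%) were higher in antral granulosa in all 3 cows, beside 22.6% of all genes. After LH, SDHD, SDHC, COX5A, NDUFAB1, NDUFA13 and ATP5F1B were lower in antral granulosa, which is 7.06% of the genes, beside 2.25% of all genes lower and 1.16% higher. SDHD was lower, with differences of -0.85, -0.61 and -0.67 in cows A, B and C, or -0.71 ± 0.11 (adjusted p = 0.0146), SDHC at -0.59 ± 0.12 (adjusted p = 0.0298) and COX5A at -0.73 ± 0.16 (adjusted p = 0.0322). In all 3 cows 43 genes (50.6%) were lower in antral granulosa, beside 26.6% of all genes. The median after LH was -0.10 against -0.01 over all genes. Under quantile normalization it was 0.01 against 0.02 over all genes. Under centring of each array it was 0.01 against 0.10, since the all-gene median moved as well. No call between the granulosa populations held without each single cow. Over all genes the calls after LH were 0 higher and 0 lower without cow B, and 0 and 3 without cow A. Before LH they were 6 and 34 without cow D. A second probe set of NDUFAB1 read 0.15 after LH where the first read -0.59.

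Genes that build or surround the chain were read from lists. Of 25 measured assembly factors outside the naming rule, 7 fell and none rose in antral granulosa, 5 fell in membrane granulosa and 1 in theca, with medians of -0.26, -0.04 and -0.14. The falls were 28% of the list in antral granulosa, 20% in membrane granulosa and 4% in theca, beside 16.1%, 12.9% and 2.85% of all genes. COX20, which helps to mature a mitochondrially encoded subunit of complex IV, fell in all 3, with changes of -1.37 ± 0.11, -0.97 ± 0.11 and -0.73 ± 0.11 (adjusted p = 3.33e-07, 1.25e-05 and 0.00123). COX15, an enzyme of heme A synthesis for complex IV, fell, with a change of -1.65 ± 0.33 in antral and -1.71 ± 0.33 in membrane granulosa (adjusted p = 0.00165 and 0.00139) and read -0.06 ± 0.33 in theca, and the theca response differed from that of membrane granulosa by 1.65 ± 0.22 (adjusted p = 0.000704). TMEM70, an assembly factor of the ATP synthase, fell in antral and membrane granulosa, with changes of -0.70 ± 0.16 and -0.64 ± 0.16 (adjusted p = 0.00411 and 0.00891). Of 67 genes of the mitochondrial ribosome, which makes the mitochondrially encoded subunits, 25 fell and 1 rose in antral granulosa, 5 fell and 3 rose in membrane granulosa, and 2 fell in theca, with medians of -0.48, -0.08 and -0.21. The falls were 37.3%, 7.46% and 2.99% of these genes, so that the share was above that of all genes (16.1%) in antral granulosa, below it in membrane granulosa (12.9%) and near it in theca (2.85%).

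Of 11 measured regulators of mitochondrial gene expression and biogenesis, 3 fell and 1 rose in antral granulosa, 1 fell in membrane granulosa and none was called in theca. In antral granulosa these are 27.3% lower and 9.09% higher, beside 16.1% and 12.6% of all genes, and the 9.09% lower in membrane granulosa was under the 12.9% of all genes. PPARGC1A, the coactivator PGC-1 alpha, fell, with changes of -0.72 ± 0.21 and -0.63 ± 0.21 in antral and membrane granulosa (adjusted p = 0.0223 and 0.0458), calls lost without 4 and 5 of the 6 cows in turn. Its signal was below the limit of 4.62 on every array, so these changes lie among the dimmest probe sets. PPRC1, a related coactivator, fell in antral granulosa, with a change of -0.72 ± 0.17 (adjusted p = 0.00513). NRF1, a transcription factor of respiratory chain genes, was not called after LH and was lower in theca than in membrane granulosa before LH, with a difference of -1.11 ± 0.18 (adjusted p = 0.000488). Of 6 dehydrogenases that pass electrons to ubiquinone by other routes, GPD2, the mitochondrial glycerol-3-phosphate dehydrogenase, rose in membrane and antral granulosa by 1.91 ± 0.47 and 1.84 ± 0.47 (adjusted p = 0.00788 and 0.00932), calls lost without cow G and without cow C. Before LH GPD2 averaged 4.80 in membrane granulosa, near the limit of 4.62, and 4.51 in antral granulosa, below it. ETFA and ETFB, the electron transfer flavoprotein of fatty acid oxidation, fell in antral granulosa, with changes of -0.57 ± 0.17 and -0.55 ± 0.18 (adjusted p = 0.0220 and 0.0413), calls lost without 3 and 5 of the 6 cows in turn. ETFA fell in theca too, with a change of -0.66 ± 0.17 (adjusted p = 0.0375, lost without cow A, B, C, D or F).

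Of 10 carriers of the mitochondrial membranes, UCP2 rose by 1.41 ± 0.25 and 1.09 ± 0.25 in membrane and antral granulosa (adjusted p = 0.000740 and 0.00498), and VDAC1, the channel of the outer membrane, fell, with changes of -0.96 ± 0.24 and -0.94 ± 0.24 (adjusted p = 0.00830 and 0.00925), each lost without 2 of the 6 cows in turn. In all, 3 carriers rose and 2 fell in membrane granulosa, 1 rose and 1 fell in antral granulosa and none was called in theca. The 10% each way in antral granulosa was under the 12.6% and 16.1% of all genes, and the 30% higher and 20% lower in membrane granulosa stood beside 13.1% and 12.9%. Of 5 genes of mitochondrial steroid synthesis, TSPO, an outer membrane protein linked to cholesterol handling, rose in membrane granulosa, antral granulosa and theca by 3.05 ± 0.26, 3.22 ± 0.26 and 1.81 ± 0.26 (adjusted p = 7.92e-07, 3.19e-07 and 0.000845). FDX1, the ferredoxin that feeds electrons to the mitochondrial steroid enzymes, rose in antral granulosa by 1.58 ± 0.51 (adjusted p = 0.0380, lost without cow A, D, F or G) and read 1.48 ± 0.51 in membrane granulosa (adjusted p = 0.0532). CYP11A1, the enzyme of the first step from cholesterol, fell in antral granulosa, with a change of -3.90 ± 1.23 (adjusted p = 0.0314, lost without 5 of the 6 cows in turn).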

How the data were processed

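Expression signals came from 18 Affymetrix bovine arrays, 3 cows in each of 6 groups, and the number of arrays limits the precision. The deposited values are log2 signals, made by the authors with RMA in Partek 6.5 per the submitters' processing notes; its settings are not given in the sources used here, and the scans were not used here. They ran from 2.29 to 14.9, with array medians of 5.74 to 5.86. Of 24128 probe sets 112 controls were left out, and of 24016 tested 13292 had 1 gene symbol, 86 several and 10638 none in the platform table, which can be old. All 85 genes matched RefSeq with no symbol changed.

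Tests used the functions lmFit and eBayes of limma 3.58.1 (R 4.3.3), with Benjamini-Hochberg adjustment over the 24016 probe sets and a threshold of 0.05. Effects of LH compared group means over all 18 arrays. Comparisons within follicles, and the differences between LH effects, had the cow as a block. The pairing comes from the labels, which give 3 populations per cow, and same-cow arrays deviated together in 17 of 18 pairs (correlations of -0.017 to 0.69). Numbers shared before and after LH are different cows (correlations of -0.17 to 0.23, 2 of 9 over 0.1). With 3 against 3 arrays an exact permutation test of a single gene cannot go below 0.1, so none was run.

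The genes named are the 5 largest rises and falls per comparison among those called, the catalytic core and the 2 members of highest mean of each complex, the isoform groups and the assembly or inhibitor genes. A few others were named after their values were seen, as were the genes taken from the lists and the probe sets that disagree. The members and the lists were chosen with earlier results of these data known. The fit was tested on simulated data with known changes. Alternatives were quantile normalization, median centring, leaving out the dimmest probe sets, eBayes with trend and robust settings, only the arrays compared, the replicate block, the cow as a random block, antral in place of membrane granulosa, another probe set and leaving out each cow. Figures were drawn with matplotlib 3.10.9.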

Additional observations from a re-analysis of the deposited data

Results flagged for a closer look

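In 3 genes of the respiratory chain the response to LH itself differed between theca and membrane granulosa in the limma test of the difference. These are 1.18% of the genes higher and 2.35% lower, beside 5.66% and 5.96% of all genes, so the chain was called less often than all genes. For NDUFB11 the difference, theca less membrane granulosa, was -1.16, and the response was smaller in theca. For NDUFS4 it was 0.64, where the fall in membrane granulosa was called and that in theca was not. For COX6B2 it was -1.002, with values near the lower limit of the signal, and it was not called under quantile normalization or median centring. Each was the same in direction in all fits without a cow, and only the difference of NDUFB11 was called in all of them. No gene of the chain differed between antral and membrane granulosa in the same test. A dimmer probe set of ATP5MG was called for theca less membrane granulosa (-0.66, adjusted p = 0.0262), where the brighter was not.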

How the results depend on the processing

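Counts of called genes moved more than directions did. Of 618 values of single named results under alternatives, 472 kept direction and call, 144 kept direction and lost the call, and 2 turned: NDUFS1 between theca and membrane granulosa before LH (0.058 with another probe set) and NDUFAB1 between the granulosa populations after LH (0.15 with another probe set). The cause was not tested.

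With only the arrays compared, which leaves fewer arrays to estimate the spread, the calls were 9 for LH in membrane granulosa, 1 in theca, 18 and 6 for theca against membrane granulosa before and after LH, 0 for antral against membrane granulosa before LH and 1 for the difference between theca and membrane granulosa in LH effect. The calls over all genes were fewer too. For LH in membrane granulosa they were 839 higher and 871 lower, beside 1200 and 1185 with all 18 arrays. In theca they were 140 and 139, beside 214 and 261. For theca against membrane granulosa they were 1640 and 1375 before LH and 1015 and 965 after. For antral against membrane granulosa before LH they were 6 and 51, beside 96 and 140. For the difference they were 365 and 413, beside 518 and 546. Without the replicate block of the cow the calls in the chain were 19 for theca before LH, 0 and 0 for antral against membrane granulosa before and after LH, and 1 for that difference. Over all genes these were 1570 higher and 1329 lower for theca before LH. Between the granulosa populations they were 20 and 47 before LH and 46 and 62 after, and for the difference 267 and 255. The numbers shared before and after LH do not pair cows, and a replicate block on them gave 16, 31 and 5 calls for LH in membrane granulosa, antral granulosa and theca. Of all genes 1301, 1253 and 269 were higher and 1312, 1598 and 337 lower, in the same order. With antral in place of membrane granulosa, theca gave 20 calls before LH (11 higher, 9 lower) and 31 after (26 higher, 5 lower). Over all genes these were 1783 higher and 2007 lower before, and 2031 higher and 1833 lower after. Quantile normalization gave 24 calls for theca after LH (22 higher, 2 lower) and 2 for antral against membrane granulosa after LH. Of all genes 1515 were higher and 1327 lower in the first, and 124 and 119 in the second. Median centring gave 7 and 3 calls between the granulosa populations before and after LH, and moved the all-gene median to -0.10 for LH in membrane granulosa. Between the granulosa populations it gave 133 of all genes higher and 107 lower before LH, and 298 and 146 after. The trend and robust settings gave 11 between the granulosa populations before LH, beside 132 of all genes higher and 176 lower. Other probe sets gave 5 for the difference between theca and membrane granulosa in LH effect. Leaving out each cow gave 8 to 27 calls for LH in membrane granulosa, 18 to 48 in antral granulosa and 0 to 8 in theca. Of all genes 847 to 1300, 1063 to 1632 and 124 to 270 were lower, in the same order. Higher were 816 to 1311, 883 to 1200 and 99 to 268. Leaving out each cow also gave 21 to 35 and 3 to 16 calls for theca against membrane granulosa before and after LH, 0 to 3 and 0 to 4 for the granulosa populations, and 1 to 4 for the difference. The all-gene calls varied too. For theca after LH they ran from 625 to 1488 higher and from 510 to 1444 lower. For the granulosa populations after LH they ran from 0 to 76 higher and from 0 to 169 lower.

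Each group holds 3 cows, the cows before and after LH differ, and cow C carries much of the spread after LH. A gene that was not called is not shown to be unchanged. No probe sequence was read, and which transcripts a probe set sees is known from the platform table alone.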

Other observations

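The regulators and electron routes around the chain also differed between theca and membrane granulosa of the same follicles. Before LH 5 of 11 regulators of mitochondrial gene expression (45.5%) were lower in theca and none higher, beside 19.3% of all genes lower and 21.1% higher. Among them were NRF1, TFB1M and TFB2M (-0.77 and -0.69 for the last 2, adjusted p = 0.00358 and 0.00103 in limma). The 5 include PPARGC1A, which was below 4.62 on every array. TFB1M methylates mitochondrial ribosomal RNA, and TFB2M takes part in starting mitochondrial transcription. SQOR, which oxidises hydrogen sulfide and passes the electrons to ubiquinone, was higher in theca by 2.06 before LH and 1.76 after (adjusted p = 0.00018 and 0.00107). FDX1 was higher in theca by 1.95 before LH (adjusted p = 2.69e-05) and read 0.13 after, and its response to LH was lower in theca than in membrane granulosa, with a difference of -1.83 (adjusted p = 0.00245). Of 67 mitochondrial ribosome genes 18 were higher and 1 lower in theca before LH, and 7 higher and 3 lower after. The share higher was 26.9% before LH, beside 21.1% of all genes, and 10.4% after LH, under the 15.7% of all genes.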
